A study of Ovis aries with 19 samples.

Results

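Collagen chains are the polypeptides that assemble in threes into the collagens of the extracellular matrix. The members described here were the rows of the gene table named COL, a type number, A and a chain number, with a mean normalized read count of at least 10 in muscle or liver. Of 28524 rows, 42 carried such a name and 29 met the minimum. They comprised 8 fibrillar chains, 8 basement membrane chains, a group that includes the basement membrane associated types XV and XVIII, and 13 other chains. In muscle 27 of the 29 reached the minimum, with COL4A3 and COL4A4 below it, and in liver 27, with COL13A1 and COL23A1 below it. The choice used levels only, not the treatment, but for chains that reached the minimum in a single tissue it favours a higher level there.

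RNA was sequenced from muscle and liver of 10 female sheep, 5 exposed to excess testosterone before birth (called treated) and 5 controls. Muscle gave 5 treated and 5 control libraries, and liver gave 5 treated and 4 control libraries, since a liver of control sheep 132 was not analysed here. The labels give no breed, age, testosterone dose, window of exposure or muscle site, and no treatment other than the prenatal one. Each library of a tissue came from a separate animal, so the spread below is between animals, and 9 sheep gave both tissues. Where the values of single libraries are listed, treated sheep are in the order 48, 63, 185, 233 and 255, control sheep in the order 98, 131, 132, 179 and 201 for muscle, and control sheep 98, 131, 179 and 201 for liver.

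In every collagen, 3 chains wind into a helix built on a repeat of glycine and a pair of other residues. Fibrillar collagens such as types I, III and V pack into the cable-like fibrils that bear tension, while type IV collagen forms the sheet-like network of basement membranes and type VI forms beaded filaments that link cells to both. In skeletal muscle the interstitial fibroblasts are the main source of the collagens around each fibre, and in liver the stellate cells and portal fibroblasts are the main source of the fibrillar chains. A bulk library measures RNA of the whole tissue piece, so fewer cells of one type and less RNA per cell cannot be told apart.

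Total reads ran from 8455563 to 14331578 in muscle and from 10236610 to 16046301 in liver. Marker genes followed the tissue labels. Summed over the 4 hepatocyte markers in the table (ALB, TTR, SERPINA1, APOB), libraries held 0 to 29.2 normalized reads in muscle and 158354 to 1292240 in liver. Summed over the 5 skeletal muscle fibre markers (ACTA1, CKM, MYH1, TNNT3, NEB), they held 682147 to 1537429 in muscle and 13.9 to 114 in liver. Normalized read counts are reads scaled by a factor per library, computed within each tissue, and are comparable within a tissue only.

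Collagen transcripts were a small part of both transcriptomes, and the make-up of that part differed between the tissues. Collagen reads were summed over all 42 collagen rows, the 29 chains and the 13 rows below the minimum. They took 0.113% ± 0.0436 of the reads in treated muscles (SD, n = 5) and 0.0835% ± 0.0103 in control muscles (n = 5). In liver they took 0.0684% ± 0.0140 in treated sheep (n = 5) and 0.116% ± 0.0394 in control sheep (n = 4). The 2 highest muscle libraries were both treated, sheep 233 with 0.175% and sheep 185 with 0.139%, while the other 3 treated muscles, at 0.0714% to 0.101%, lay close to the control range of 0.0695% to 0.0935%. In liver the groups overlapped as well, at 0.0542% to 0.0912% in treated and 0.0678% to 0.160% in control sheep.

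Basement membrane chains supplied 45.4% ± 5.38 of the collagen reads in treated livers and 57.0% ± 5.82 in control livers, against 28.5% ± 4.60 in treated and 29.4% ± 2.62 in control muscles (SD). COL18A1, the type XVIII chain that carries heparan sulfate and releases endostatin from its end, took 29.9% ± 5.65 of collagen reads in treated livers and 42.8% ± 8.65 in control livers, but 1.44% ± 0.350 in treated muscles. In muscle the reads were spread over COL6A3 (13.2% ± 1.54 in treated and 13.0% ± 2.00 in control muscles), COL3A1 (13.1% ± 2.93 in treated and 11.9% ± 2.86 in control muscles) and COL4A1 (12.9% ± 2.37 in treated and 15.1% ± 1.78 in control muscles). A share of reads grows with transcript length, so these shares compare libraries and do not rank chains by molecules.

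**Figure D1:**
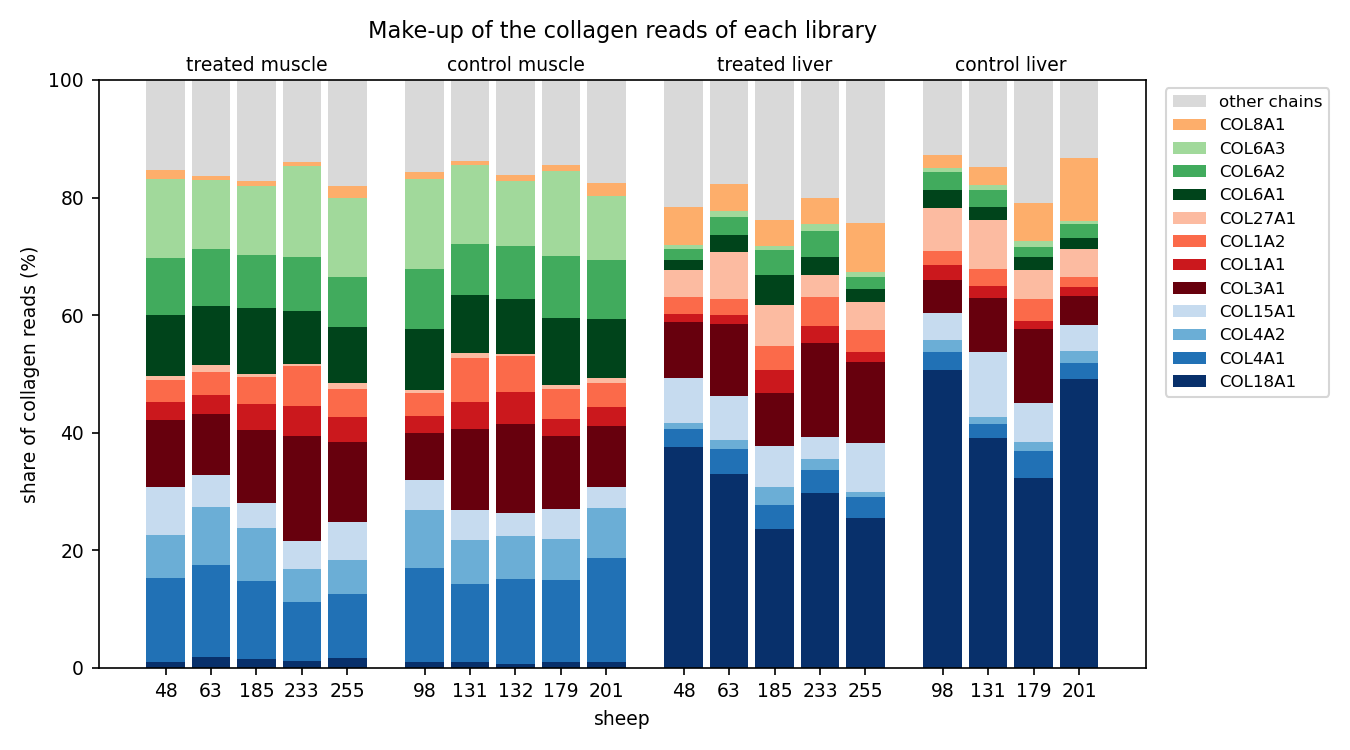
Share of collagen reads (%, vertical axis) taken by 12 chains and by all other collagen chains together, in each of the 19 libraries (one bar each, grouped as treated muscle, control muscle, treated liver and control liver, sheep numbers below). COL18A1 fills 23.6% to 37.6% of the bar in treated livers and 32.4% to 50.7% in control livers, and is a thin band in every muscle.

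The first comparison asked whether prenatal testosterone excess changed collagen transcripts in muscle. No chain passed the test there. With limma on log2(normalized count + 1) and Benjamini-Hochberg adjustment over all 12966 genes tested, 0 of 27 chains were higher and 0 lower at an adjusted p under 0.05, where 0.00771% of all genes were called higher (1 gene) and 0.0% lower. edgeR's quasi-likelihood test called 0 chains as well, and DESeq2 called 1 higher, COL18A1, where it called 1.26% of genes higher. At an unadjusted p under 0.05, 5 of 27 chains (18.5%) were higher, against 7.37% of all genes, and 0 were lower, against 7.0%. The log2 difference was above 0 for 22 of 27 chains (81.5%), against 48.4% of all genes, with a median of 0.25 over the chains and -0.01 over all genes. Chains varied together between animals, so these counts are not 27 separate observations.

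Treated sheep 233 and 185 stood above the other muscles. Averaged over the 27 chains, the log2 deviation from the control mean was 0.93 in treated sheep 233 and 0.59 in treated sheep 185, against -0.05, -0.10 and 0.13 in treated sheep 48, 63 and 255, and -0.23 to 0.23 in the 5 controls. Without sheep 233 the median difference was 0.06 and 14 of 27 chains lay above 0, and it was 0.16 without treated sheep 185 and 0.12 without control sheep 201. With sheep 185 and 233 both left out, a choice made after seeing the data, the median was -0.20 and 11 of 27 lay above 0. The count of chains higher at an unadjusted p under 0.05 was 2 without treated sheep 185, 3 without control sheep 98 or control sheep 132, 1 without sheep 185 and 233, and 2 in a single fit of both tissues. Over all 12966 genes that count was 955 in the main fit. In the fits named it was, in the same order, 795, 799, 858, 741 and 479. The number of genes with a read was 17180 to 18029 in treated and 16586 to 17035 in control muscles, without overlap, and was highest in sheep 185 (18029) and 233 (17789). In liver it was 16852 to 17911 in treated and 17930 to 20704 in control sheep, also without overlap, with control sheep 201 at 20704 and the other 3 controls at no more than 18289. The part of this in the collagen values was not tested.

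In liver the lean was in the other direction, and again no chain passed. Of 13640 genes tested, 0.00733% were called higher (1 gene) and 0.0% lower, and of 27 chains 0 were called in either direction with limma or edgeR, while DESeq2 called 1 lower, COL18A1, where it called 0.11% of genes lower. At an unadjusted p under 0.05, 0 chains were higher, against 1.82% of genes, and 2 (7.41%) were lower, against 2.17%. The log2 difference lay below 0 for 21 of 27 chains (77.8%), against 49.6% of genes, with a median of -0.18 and 0.00 over all genes. All 8 basement membrane chains lay below 0, with a median of -0.39, though COL4A3, COL4A4 and COL4A6 crossed 0 when single livers were left out. The count of 2 chains became 4 without treated sheep 185, 5 with array weights, and 1 without any one of treated sheep 48 and 233 and control sheep 98, 131 and 201. The count over all 13640 genes moved as well. It was 296 in the main fit, 490 without treated sheep 185 and 826 with array weights, and 195 to 272 in the other fits named. The median was -0.37 without treated sheep 185 or control sheep 179, -0.33 without control sheep 131 and -0.29 without treated sheep 63, and over all alternatives it ran from -0.37 to -0.14.

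**Figure D2:**
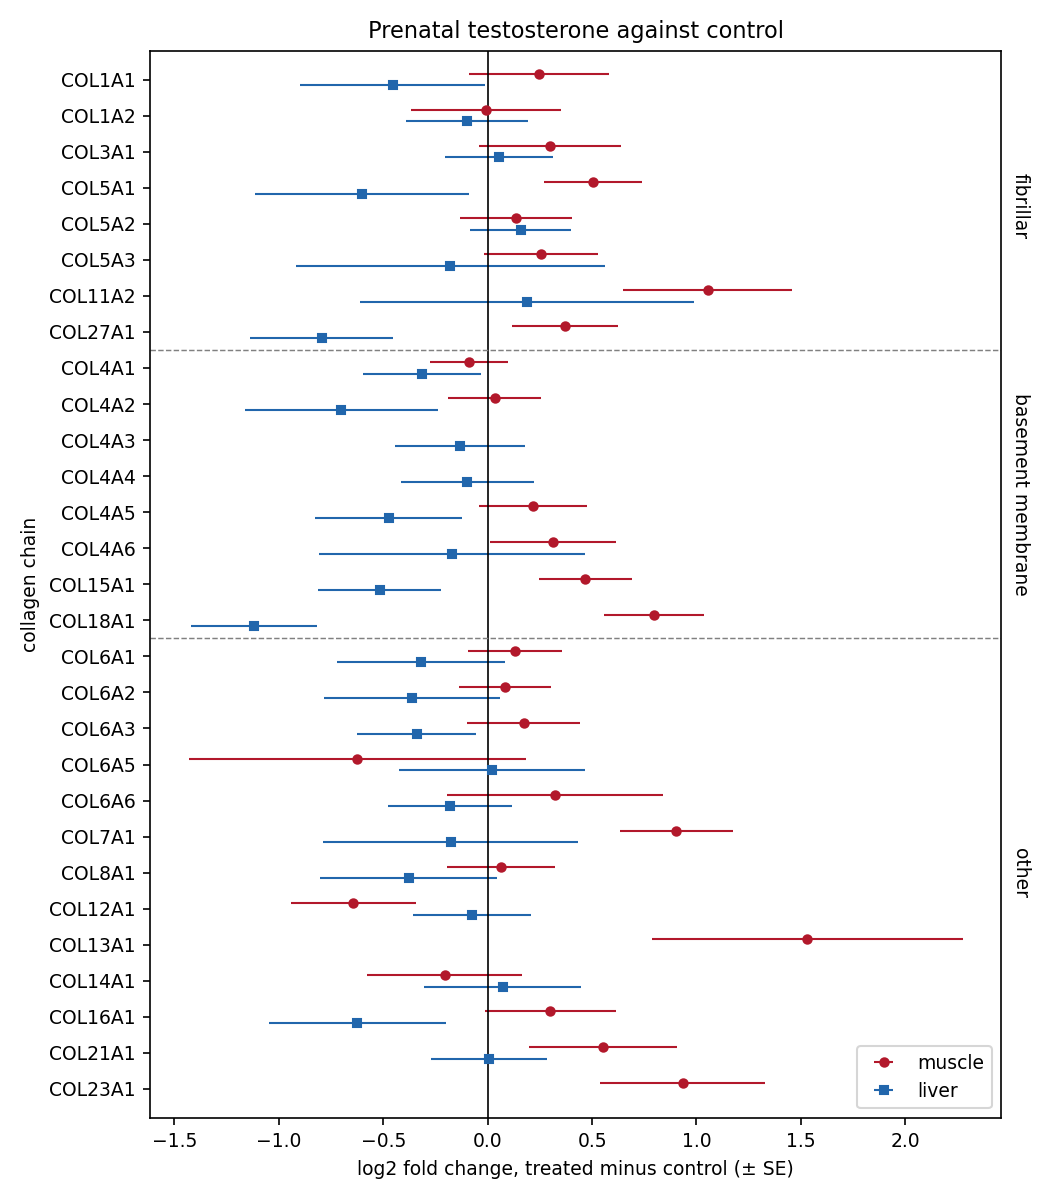
Log2 fold change (horizontal axis, treated minus control, bars ± SE of the limma fit) of each collagen chain in muscle (circles) and liver (squares), by class. Chains below the count minimum in a tissue have no point. No chain passed an adjusted p of 0.05 in either tissue, and COL18A1 lies farthest below 0 in liver, at -1.12, and above 0 in muscle, at 0.80.

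Among the basement membrane chains, COL18A1 had the smallest unadjusted p in both tissues. In liver its normalized read counts were 2459.9, 2575, 2403, 2533 and 2113 in treated livers and 8123, 4225, 2919.9 and 7471 in control livers. The 5 treated livers lay close together and below every control liver. The log2 difference was -1.12 ± 0.30 (SE, unadjusted p = 0.00299, limma adjusted p = 0.865). In edgeR it was -1.28 (adjusted p = 0.757) and in DESeq2 -1.24 (adjusted p = 0.0440). Over the 18 alternatives tried, the difference stayed between -1.40 and -0.91 and the adjusted p ran from 0.0440 to 1.0. Chains whose groups did not overlap were 1 of 27 in liver, lower in treated sheep, where 0.682% of all genes were so placed. Human hepatocytes are known to make the type XVIII chain. The hepatocyte marker sum overlapped between the groups, at 158354 to 1292240 in treated and 355044 to 881176 in control livers, as did the endothelial marker sum, at 1199 to 1712 in treated and 1104 to 1699 in control livers, and the fibroblast and stellate cell sum, at 1391 to 2736 in treated and 1630 to 2484 in control livers.

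In muscle, where the gene was far lower, COL18A1 had normalized counts of 92.3, 149.7, 208, 219.8 and 144 in treated muscles and 97.3, 110.4, 62.7, 109 and 76.6 in control muscles. Treated sheep 48 lay within the control range and the other 4 treated muscles above it. The difference was 0.80 ± 0.24 (unadjusted p = 0.00539, limma adjusted p = 0.194, edgeR adjusted p = 0.170, DESeq2 adjusted p = 0.0474). It was 0.49 with sheep 185 and 233 left out (adjusted p = 0.491).

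COL15A1, the related type XV chain that ties basement membranes to the fibrils beneath them, had counts of 744, 440.3, 596, 911 and 526 in treated muscles and 492, 568, 409, 567 and 284 in control muscles. In liver the counts were 505, 581, 712, 320.1 and 699 in treated livers and 749, 1194, 594 and 681 in control livers. The groups overlapped in both tissues, with differences of 0.47 ± 0.22 in muscle (adjusted p = 0.354) and -0.52 ± 0.29 in liver (adjusted p = 0.999).

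COL4A1 and COL4A2, the 2 chains of the type IV network found in nearly all basement membranes, had muscle counts of 1288, 1302, 1885, 1936 and 881 in treated muscles and 1530.4, 1470.0, 1473, 1556 and 1422 in control muscles for COL4A1 and 646, 819.8, 1282, 1062 and 481 in treated muscles and 952, 838, 735, 763 and 688 in control muscles for COL4A2. The control muscles were tightly grouped for COL4A1, between 1422 and 1556, and the treated muscles lay on both sides of them. In liver COL4A1 had 193, 335, 429, 326 and 299 in treated livers and 502, 251, 403 and 416 in control livers, and COL4A2 had 69.6, 122, 306, 167 and 67.2 in treated livers and 303, 126, 142 and 307 in control livers. The log2 differences were -0.09 ± 0.19 and 0.03 ± 0.22 in muscle and -0.31 ± 0.28 and -0.70 ± 0.46 in liver, for COL4A1 and COL4A2 in that order, and none passed. COL4A3, COL4A4, COL4A5 and COL4A6, chains of the type IV networks best known from kidney, lung and eye, had liver differences of -0.47 to -0.10 with SEs of 0.31 to 0.64, and COL4A5 and COL4A6 muscle differences of 0.22 ± 0.26 and 0.31 ± 0.30.

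Of the 8 fibrillar chains, 7 in muscle and 3 in liver had differences above 0, and 0 passed. The exception in muscle, COL1A2, was above 0 in edgeR and DESeq2, and COL5A3 in liver was too. COL1A1 and COL1A2, the 2 chains of type I collagen, had overlapping groups in both tissues. COL1A1 had 276, 271, 611, 958 and 349.5 in treated muscles and 276, 496, 552, 331 and 259.8 in control muscles, and COL1A2 had 338, 329, 659, 1302 and 381 in treated muscles and 386, 837, 624, 562 and 329 in control muscles. Treated sheep 233 and 185 were the highest of the muscles for COL1A1, and the other 3 treated muscles lay inside the control range. In liver COL1A1 had 84.9, 116, 402, 238 and 142 in treated livers and 384, 223, 131 and 253 in control livers, and COL1A2 had 189.9, 214, 422, 423 and 313 in treated livers and 384, 319.6, 335 and 246 in control livers. The differences were 0.25 ± 0.34 and -0.01 ± 0.36 in muscle, and -0.45 ± 0.44 and -0.10 ± 0.29 in liver, for COL1A1 and COL1A2 in that order.

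COL3A1, the chain of type III collagen, which forms thin fibrils together with type I, had muscle counts of 1014, 857, 1759.9, 3417 and 1114 in treated muscles and 756, 1548, 1531, 1382 and 835 in control muscles and liver counts of 621, 968, 912, 1361 and 1134 in treated livers and 912, 992, 1135 and 730.1 in control livers. Treated sheep 233 and 185 were the highest of all muscles, and the other 3 treated muscles lay inside the control range. Its differences were 0.30 ± 0.34 in muscle (adjusted p = 0.727) and 0.06 ± 0.26 in liver (adjusted p = 0.999).

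COL5A1 and COL5A2 encode chains of type V collagen, which starts fibrils and limits their width. COL5A1 had muscle counts of 274, 258, 488, 565 and 228 in treated muscles and 223, 252, 267, 253 and 202 in control muscles, with 3 treated muscles between 228 and 274 beside control values of 202 to 267 and sheep 185 and 233 above all others. The difference was 0.50 ± 0.23 (unadjusted p = 0.0486, adjusted p = 0.346), and 0.08 without sheep 185 and 233. In liver COL5A1 had 71.9, 133, 379, 122 and 79.1 in treated livers and 360.2, 115, 112 and 314 in control livers, a difference of -0.60 ± 0.51. The treated liver mean of COL5A1 was 157, and 101 without sheep 185.

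COL5A2 had 187, 143, 283, 471 and 184 in treated muscles and 175, 223, 239, 255 and 174 in control muscles, and in liver 295, 234, 372, 359 and 386 in treated livers and 224, 284, 376 and 295 in control livers. It had differences of 0.13 ± 0.27 in muscle and 0.16 ± 0.24 in liver, and the liver value had the smallest p of the chains above 0 in liver (unadjusted p = 0.527).

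COL11A2, a chain of type XI collagen best known from cartilage, had low muscle counts of 33.5, 41.3, 73.4, 32.4 and 14.6 in treated muscles and 17.9, 7.58, 14.3, 22.1 and 24.6 in control muscles. The difference was 1.05 ± 0.41 (unadjusted p = 0.0216, adjusted p = 0.273), with treated sheep 255 inside the control range. In liver COL11A2 had 4.72, 12.0, 38.1, 19.3 and 2.17 in treated livers and 13.6, 11.6, 1.66 and 18.9 in control livers, with overlapping groups, a difference of 0.19 ± 0.80 and a treated mean of 15.2 that was 9.53 without sheep 185.

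COL27A1, a fibrillar chain with interruptions in its helix that is known from cartilage, had liver counts of 305, 627, 709.9, 314 and 393 in treated livers and 1192, 899, 452 and 714 in control livers. Treated sheep 48, 233 and 255 lay below every control liver and treated sheep 63 and 185 within the control range. The difference was -0.80 ± 0.34 (unadjusted p = 0.0394, adjusted p = 0.999). In muscle COL27A1 had 59.9, 96.3, 75.6, 68.1 and 93.2 in treated muscles and 45.7, 102, 38.5, 73.1 and 57.4 in control muscles, a difference of 0.37 ± 0.25 (adjusted p = 0.531). The remaining fibrillar chain, COL5A3, differed by 0.25 ± 0.27 in muscle and -0.18 ± 0.74 in liver, where its treated mean of 24.7 was 13.8 without sheep 185.

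**Figure D3:**
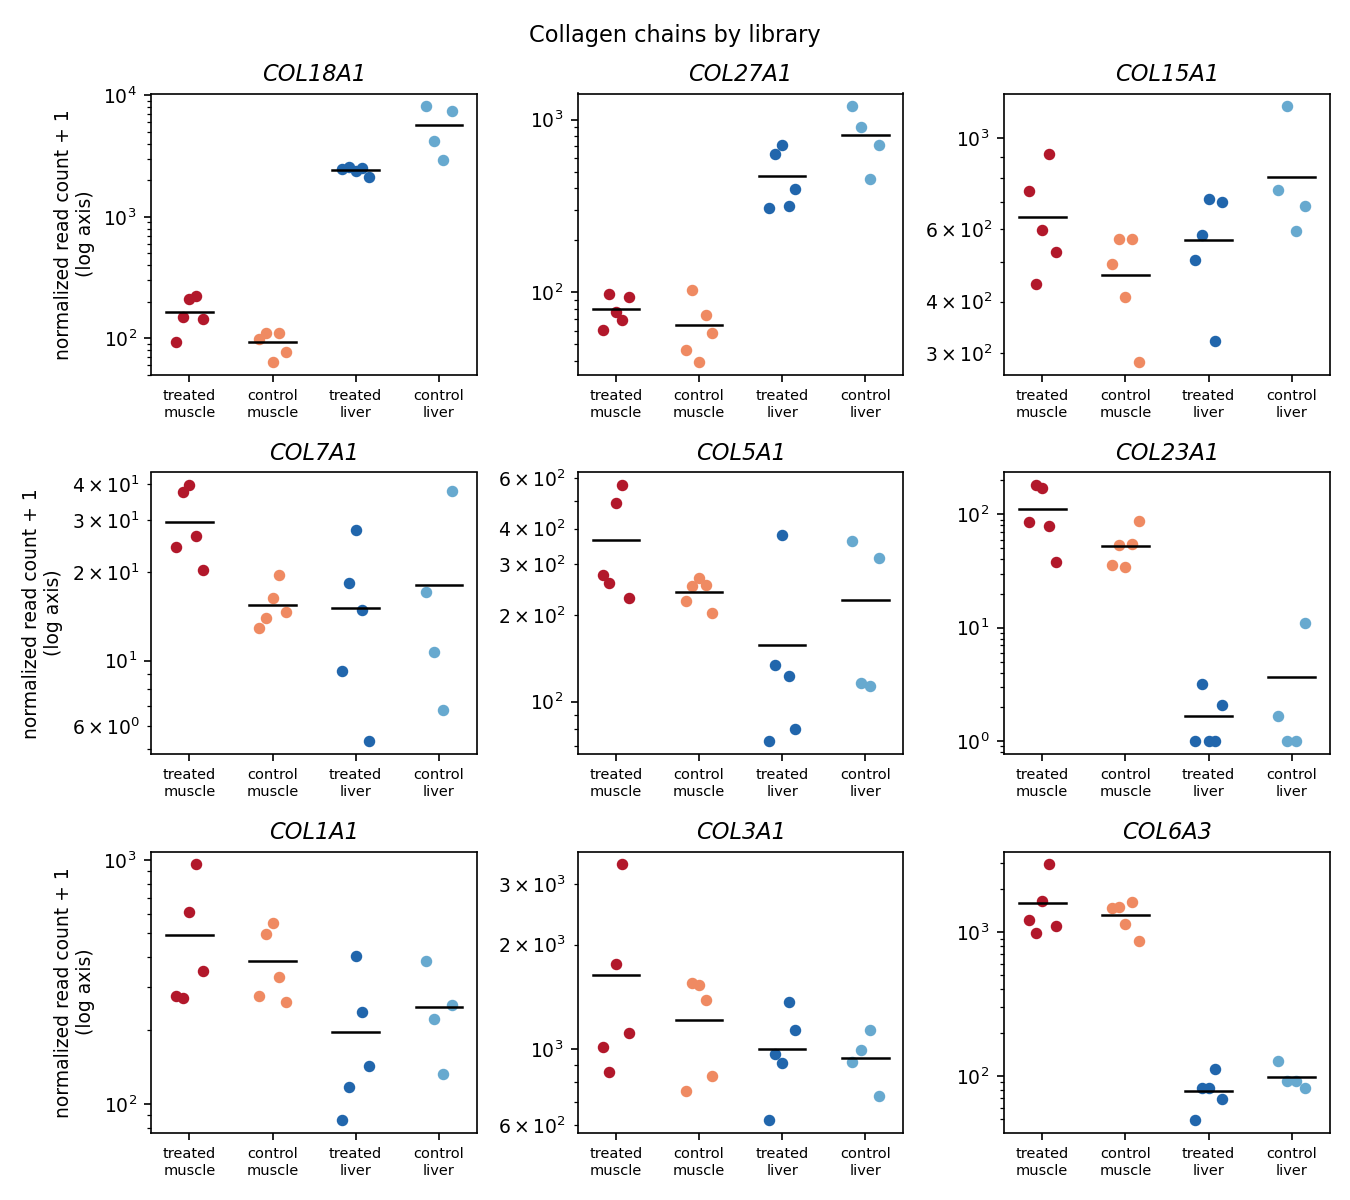
Normalized read count + 1 (log axis, scaled within each tissue) of 9 collagen chains in each library, with treated muscle, control muscle, treated liver and control liver from left to right. Points are animals and bars group means. COL18A1 in treated livers, at 2113 to 2575, sits below every control liver, at 2920 to 8123, while the groups overlap in muscle.

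Of the 13 other chains, COL7A1 had the smallest p in muscle. It encodes the anchoring fibrils known from skin and is a weakly read gene here, with 235 reads over the 10 muscles. Its counts were 23.3, 36.4, 38.5, 25.6 and 19.4 in treated muscles and 11.9, 13.0, 15.4, 18.6 and 13.7 in control muscles. The lowest treated muscle, at 19.4, lay above the highest control muscle, at 18.6. This was 1 of 27 chains (3.7%) placed higher without overlap, where 1.76% of all genes were. The difference was 0.90 ± 0.27 (unadjusted p = 0.00496, limma adjusted p = 0.190, edgeR adjusted p = 0.172, DESeq2 adjusted p = 0.0873). In liver COL7A1 had 8.25, 17.4, 26.8, 13.9 and 4.33 in treated livers and 16.2, 9.68, 5.80 and 36.7 in control livers, with a difference of -0.18 ± 0.61.

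The 3 main type VI chains did not part the groups. COL6A1 had 937, 827, 1591, 1717 and 769.9 in treated muscles and 987, 1092, 946, 1262 and 807 in control muscles, and COL6A2, its short partner chain, had 869, 802, 1274, 1766 and 703 in treated muscles and 988, 967, 914, 1162 and 815 in control muscles. COL6A3, the long chain of the same filaments, had 1217, 975, 1651, 2949.9 and 1095 in treated muscles and 1459, 1498, 1129, 1622 and 868 in control muscles. Loss of any of the 3 causes congenital muscle disease in humans. In muscle the differences were 0.13 ± 0.22, 0.08 ± 0.22 and 0.17 ± 0.27 for the 3 chains in the order of their numbers, and sheep 233 was the highest library for each. In liver COL6A1 had 114, 229, 523, 265 and 187 in treated livers and 486, 243, 197 and 306 in control livers. COL6A2 had 114, 228, 420.4, 369 and 170.1 in treated livers and 475, 313, 153 and 357 in control livers, and COL6A3 had 48.3, 81.5, 81.4, 110.3 and 68.3 in treated livers and 125, 91.0, 90.4 and 81.2 in control livers. The liver differences were -0.32 ± 0.40, -0.36 ± 0.42 and -0.34 ± 0.28.

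COL12A1 and COL14A1 encode fibril-associated collagens that sit on the surface of type I fibrils. COL12A1 had muscle counts of 71.0, 91.4, 100.3, 263 and 179.6 in treated muscles and 219, 149, 191, 195 and 238 in control muscles. Treated sheep 48, 63 and 185 lay below every control muscle and sheep 233 above them, for a difference of -0.64 ± 0.30 (unadjusted p = 0.0506, adjusted p = 0.347). This was the lowest p of any chain with a difference below 0 in muscle. In liver COL12A1 had 211, 272, 381, 386 and 542 in treated livers and 393, 347, 415 and 293 in control livers, a difference of -0.07 ± 0.28.

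COL14A1 had muscle counts of 83.2, 121, 184, 176 and 249.5 in treated muscles and 346, 105, 311, 110.3 and 134 in control muscles, where control sheep 98 and 132 stood apart from the other 3 controls. In liver it had 97.9, 173, 420.4, 224 and 186 in treated livers and 268, 150.1, 143 and 213 in control livers, and the differences were -0.21 ± 0.37 in muscle and 0.07 ± 0.38 in liver. COL22A1, a fibril-associated chain of the junction between muscle and tendon, was below the minimum, with 18 reads over the 10 muscles and 10 over the 9 livers.

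COL23A1, a transmembrane collagen, had muscle counts of 84.2, 179.7, 172, 77.5 and 36.9 in treated muscles and 34.7, 53.0, 33.0, 53.4 and 86.1 in control muscles. Treated sheep 63 and 185 were above all controls and the other 3 treated muscles within their range (0.93 ± 0.40, unadjusted p = 0.0344, adjusted p = 0.314). COL13A1, a transmembrane collagen of the neuromuscular junction, averaged 19.4 ± 18.6 in treated and 7.21 ± 7.49 in control muscles (SD, n = 5 each), and 11.3 in treated muscles without sheep 233 and 4.14 in control muscles without sheep 131. COL6A5, an alternative type VI chain, had 1.01, 0.809, 3.63, 7.67 and 50.5 in treated muscles and 7.94, 10.8, 3.30, 17.4 and 6.84 in control muscles. A single library, treated sheep 255, supplied most of the treated mean of 12.7, which was 3.28 without it, and the sign of the difference depended on the scale, at -0.62 ± 0.81 in limma, 0.43 in edgeR and 0.45 in DESeq2. The other 4 chains overlapped between the groups in both tissues. COL6A6 differed by 0.32 ± 0.52 in muscle and -0.18 ± 0.30 in liver, COL8A1 by 0.07 ± 0.26 and -0.38 ± 0.42, COL16A1 by 0.30 ± 0.31 and -0.62 ± 0.42, and COL21A1 by 0.55 ± 0.35 and 0.01 ± 0.28. The control liver mean of COL8A1, 721, was 421 without sheep 201.

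The members nearest the minimum of 10 were COL13A1 inside it (13.3 in muscle) and COL28A1 (8.11 in liver), COL20A1 (7.20 in muscle) and COL26A1 (6.99 in liver) outside it.

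Whether the treatment difference itself differed between the tissues was tested over the 19 libraries in one fit. For 25 chains measured in both tissues, 0 passed an adjusted p of 0.05 in limma or edgeR, where 0.00855% of 11697 genes were called higher in muscle than in liver. DESeq2 called 1, COL18A1, where it called 0.0427% of genes. At an unadjusted p under 0.05, 3 of 25 (12.0%) had a more positive difference in muscle, against 2.56% of genes. They were COL18A1, COL15A1 and COL27A1. The count was 2 without treated sheep 233 or control sheep 98, and 6 without control sheep 179 or with array weights. Over all 11697 genes it was 299 in the main fit. It was 257 without treated sheep 233, 178 without control sheep 98, 736 without control sheep 179 and 893 with array weights. For COL18A1 the muscle difference exceeded the liver difference by 1.91 ± 0.38 (unadjusted p = 6.03e-05, limma adjusted p = 0.352, edgeR adjusted p = 0.137, DESeq2 adjusted p = 0.000979). With the sheep as a block the value was 1.90 (adjusted p = 0.222). Over 19 alternatives it ran from 1.69 to 2.27 with adjusted p-values of 0.000979 to 0.999. For COL15A1 it was 0.98 ± 0.37 and for COL27A1 1.17 ± 0.43 (adjusted p = 0.897 for both). A difference above 0 in muscle together with one below 0 in liver was seen for 16 of 25 chains (64.0%), against 22.0% of 11697 genes. The same animals gave both tissues, and the 2 treated muscles that carry the muscle side are named above.

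Several marker sums moved with treatment beside these values. In muscle the fibre marker sum was 682147 to 1388106 in treated and 1301905 to 1537429 in control sheep. By this sum 4 treated muscles lay below every control, and sheep 48 was the lowest. The sum of the 5 adipocyte markers (ADIPOQ, PLIN1, LEP, FABP4, CIDEC) was 166 to 567 in treated and 569 to 1810 in control muscles, and 79.2 to 277 in treated and 176 to 466 in control livers. The fibroblast sum of 8 markers overlapped in muscle, at 5346 to 8912 in treated and 6143 to 8362 in control sheep, as did the endothelial sum, at 2058 to 3746 in treated and 2746 to 4193 in control sheep. Treated sheep 233 was the highest muscle for the fibroblast (8912), macrophage (496) and cholangiocyte (831) marker sums. It was the lowest muscle for the adipocyte sum (166). The 5 cholangiocyte markers summed to 2206 to 8636 in treated and 225 to 2392 in control livers, and SPP1 supplied most of that, with means of 5275 in treated and 1079 in control livers. Taken singly, 2 of the 5 had a liver difference above 0 and 3 below, with a median log2 difference of -0.03, and 0 were called. The muscle fibre marker sum was also low without overlap in treated livers, at 13.9 to 29.9, against 42.7 to 114 in control livers. In treated livers the muscle fibre markers CKM and MYH1 were at 0, and in treated muscles the hepatocyte marker APOB was at 0. The part of these in the collagen values was not tested.

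The second question, which chains each tissue used, gave large differences that held in both treatment groups. Muscle and liver were put on one scale as CPM, recovered reads relative to the size of the library after scaling by the trimmed mean of M-values, and compared by limma on log2(CPM + 1). In treated sheep 12 of 29 chains were higher in muscle and 11 lower at an adjusted p under 0.05, where 36.0% of 14909 genes were higher and 36.0% lower. In control sheep 7 were higher and 12 lower, where 33.0% and 36.4% of genes were. These shares are near the background of all genes, and nothing particular to collagens is read from them. The treated and control comparisons used different animals. In both, 17 chains were called, all 17 in the same direction, with 6 called in treated sheep only, 2 in control sheep only and 4 in neither. The share of all genes called in both was not counted, so nothing particular to collagens is read from this either. Scaling by library totals alone put the median difference of all genes at 0.33 in treated sheep, against 0.01 with the scaling used, and at 0.04 in control sheep, against -0.06. With it 14 chains were higher and 9 lower in treated sheep, and 7 higher and 11 lower in control sheep.

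**Figure D4:**
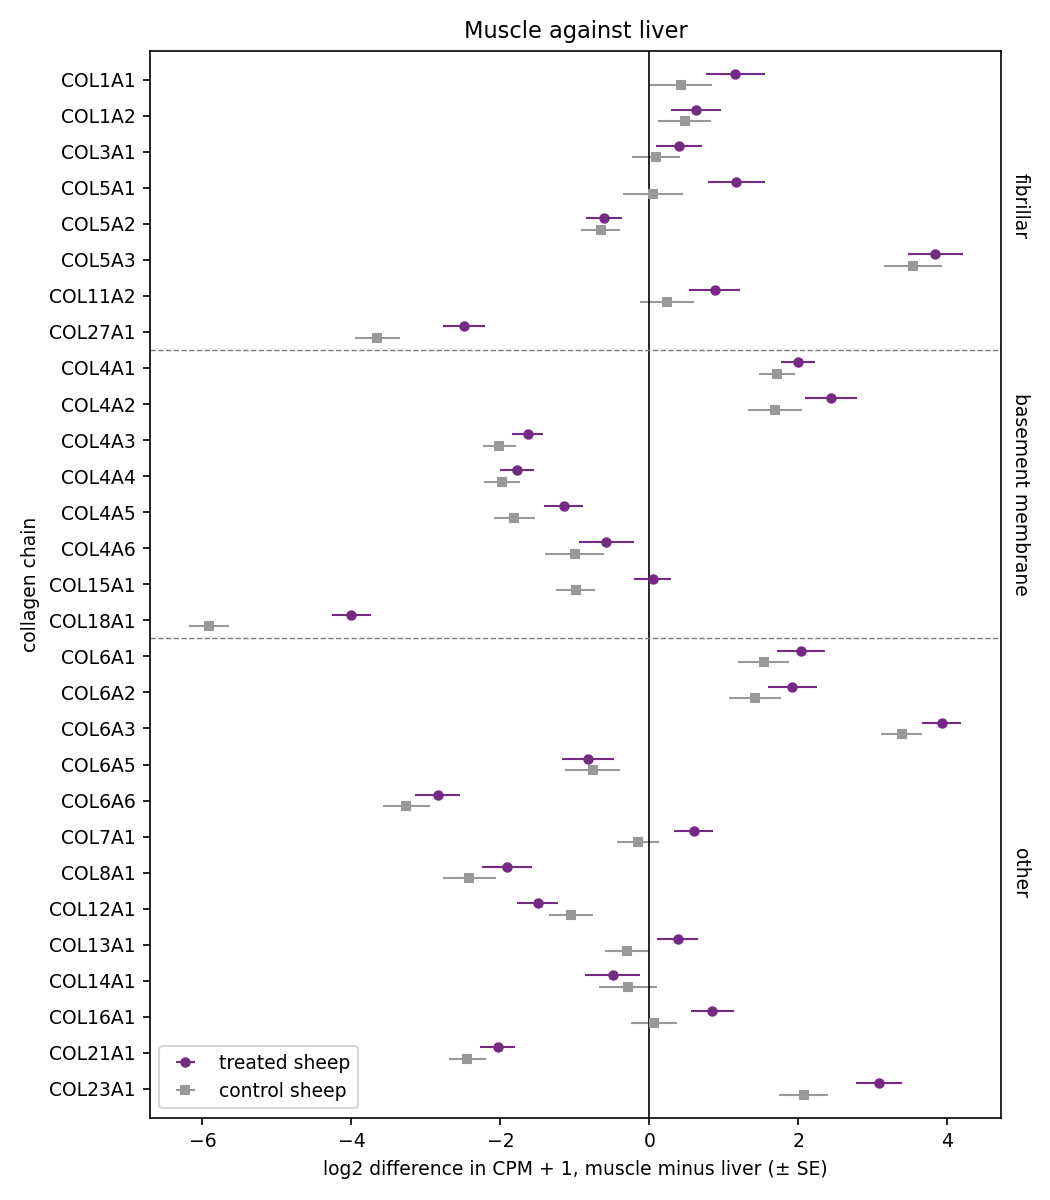
Log2 difference in CPM + 1 (horizontal axis, muscle minus liver, bars ± SE) of each of the 29 chains in treated sheep (circles) and control sheep (squares), by class. COL5A3, COL6A3 and COL23A1 lie far to the right and COL18A1, COL27A1 and COL6A6 far to the left in both sets of animals.

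On log2(CPM + 1), the chains higher in muscle were led by a type V and a type VI chain. The added 1 shrinks differences of chains near 0 CPM in a tissue. In edgeR, without it, COL23A1 led, at 6.98 in treated and 4.22 in control sheep. There COL5A3 was at 4.14 and 4.09 and COL6A3 at 4.14 and 3.55, in the same order. COL5A3, a further type V chain with a narrower spread over tissues than its partners, averaged 41.7 ± 19.8 CPM in treated muscles against 2.28 ± 2.34 in treated livers, and 32.5 ± 7.37 CPM in control muscles against 1.93 ± 0.845 in control livers (SD). The log2 difference was 3.84 ± 0.37 in treated sheep (adjusted p = 5.27e-09) and 3.54 ± 0.39 in control sheep (adjusted p = 5.14e-08). COL6A3 averaged 131 ± 67.4 CPM in treated muscles against 7.19 ± 2.15 in treated livers, and 108 ± 25.4 CPM in control muscles against 9.29 ± 2.00 in control livers. Its difference was 3.92 ± 0.26 and 3.39 ± 0.28 in treated and control sheep (adjusted p = 9.78e-12 and 3.80e-10). COL6A1 and COL6A2 were higher in muscle too, by 2.03 ± 0.32 and 1.92 ± 0.33 in treated sheep and 1.53 ± 0.34 and 1.42 ± 0.35 in control sheep.

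COL23A1 was read in every muscle, at 9.13 ± 5.24 CPM in treated and 4.26 ± 1.74 in control sheep, and in 5 of 9 livers not at all, with 13 reads over all livers. The difference was 3.09 ± 0.31 in treated and 2.07 ± 0.33 in control sheep. COL23A1 was a member through muscle only, which favours this direction. Most of the liver reads lay in control sheep 201, without which the control liver mean of 2.67 normalized counts was 0.216. COL4A1 averaged 121 ± 37.7 CPM in treated muscles against 29.1 ± 7.94 in treated livers, and 122 ± 4.72 CPM in control muscles against 37.7 ± 10.5 in control livers. That is a difference of 2.00 ± 0.23 in treated and 1.71 ± 0.24 in control sheep (adjusted p = 7.40e-08 and 1.79e-06), and COL4A2 followed at 2.44 ± 0.35 and 1.69 ± 0.37.

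The chains lower in muscle were led by COL18A1, with 13.5 ± 4.37 CPM in treated muscles against 223 ± 19.1 in treated livers, and 7.47 ± 1.71 CPM in control muscles against 548 ± 252 in control livers. The difference was -4.00 ± 0.26 in treated sheep (adjusted p = 5.44e-12) and -5.91 ± 0.27 in control sheep (adjusted p = 1.46e-14). COL27A1 averaged 6.51 ± 1.29 CPM in treated muscles against 43.3 ± 17.4 in treated livers, and 5.18 ± 2.05 CPM in control muscles against 78.4 ± 31.4 in control livers, a difference of -2.49 ± 0.28 and -3.65 ± 0.30. COL6A6, an alternative long type VI chain, averaged 1.81 ± 1.10 CPM in treated muscles against 19.1 ± 7.49 in treated livers, and 1.43 ± 0.877 CPM in control muscles against 21.1 ± 1.17 in control livers, a difference of -2.84 ± 0.30 and -3.26 ± 0.32.

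COL21A1, a small fibril-associated chain, differed by -2.04 ± 0.23 in treated and -2.44 ± 0.25 in control sheep, and COL8A1, a short network-forming chain known from vessel walls, by -1.91 ± 0.34 and -2.42 ± 0.36. COL4A3, COL4A4 and COL4A5, the chains of the type IV network of kidney and lung, were all lower in muscle, by -1.63 ± 0.21, -1.78 ± 0.23 and -1.15 ± 0.26 in treated sheep and -2.01 ± 0.22, -1.98 ± 0.24 and -1.81 ± 0.28 in control sheep. In edgeR COL4A3 and COL4A4 differed by -2.57 and -3.10 in treated sheep and by -3.32 and -3.55 in control sheep. These 2 chains were members through liver only, which favours this direction, so their values only describe levels. Of the type IV chains that reached the minimum in both tissues, COL4A1 and COL4A2 were higher and COL4A5 lower in muscle in both sets of animals.

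The classical fibril chains differed far less. COL1A2 and COL3A1 passed in neither set of animals, apart from treated sheep when only library totals were used for scaling (adjusted p = 0.0106 and 0.0271) and COL1A2 without the liver of treated sheep 233 (adjusted p = 0.0487), with differences of 0.63 ± 0.33 and 0.40 ± 0.31 in treated sheep and 0.47 ± 0.35 and 0.09 ± 0.33 in control sheep. COL1A1 was higher in muscle in treated sheep (1.16 ± 0.39, adjusted p = 0.0117), while in control sheep its difference was 0.42 ± 0.41 (adjusted p = 0.376). COL5A2 was lower in muscle by -0.61 ± 0.24 in treated and -0.66 ± 0.26 in control sheep (adjusted p = 0.0311 and 0.0298), and both calls ended when only library totals were used for scaling (adjusted p = 0.374 and 0.0727). The treated call also ended in edgeR (adjusted p = 0.0578) and without the muscle of sheep 48, 63 or 255 or the liver of sheep 185, 233 or 255, and the control call without the muscle of sheep 98, 131 or 201 or the liver of sheep 179 or 201. COL15A1 was lower in control muscles (-0.99 ± 0.27, adjusted p = 0.00235) and differed by 0.05 ± 0.25 in treated sheep. COL12A1 was lower in muscle in both sets, by -1.50 ± 0.28 in treated and -1.05 ± 0.29 in control sheep.

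Further chains passed in one set of animals. COL5A1 and COL16A1 were higher in treated muscles than in treated livers, by 1.17 ± 0.38 and 0.84 ± 0.29 (adjusted p = 0.00965 and 0.0123), and differed by 0.05 ± 0.41 and 0.07 ± 0.31 in control sheep. COL11A2 (0.88 ± 0.34, adjusted p = 0.0258), COL7A1 (0.60 ± 0.27, adjusted p = 0.0498) and COL6A5 (-0.82 ± 0.35, adjusted p = 0.0388) passed narrowly in treated sheep and ended in edgeR (adjusted p = 0.0872, 0.116 and 0.175) and without 4, 7 and 7 of the 10 treated libraries in turn. COL4A6 was lower in control muscles (-1.0 ± 0.40, adjusted p = 0.0300), which ended without the muscle of sheep 132 or 201 or the liver of sheep 179 or 201. How the tissue difference changed with treatment is the test across tissues above, which none of these passed in limma.

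Ratios of reads between partner chains within a library do not depend on the scaling. They were added after seeing the data, and a ratio of reads is not a ratio of molecules, because the transcripts differ in length. Of 27 tests on 9 ratios, 3 passed an adjusted p of 0.05, all between the tissues and each in 9 of 9 sheep (exact sign-flip permutation test, two-sided, p = 0.00391, the smallest it can give, adjusted p = 0.0352). The COL6A3 to COL6A1 ratio was 1.31 ± 0.203 in muscle (SD, n = 10) and 0.341 ± 0.0968 in liver (n = 9). The COL6A6 to COL6A1 ratio was 0.0172 ± 0.00777 in muscle and 0.907 ± 0.548 in liver. Both are long chains that can join the same 2 short partners in humans, and their balance against COL6A1 was turned round between the tissues. The COL5A3 to COL5A1 ratio was 1.52 ± 0.306 in muscle and 0.127 ± 0.0686 in liver.

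The ratios of COL6A2 to COL6A1, COL4A1 to COL4A2 and COL1A1 to COL1A2 were much closer between the tissues. COL6A2 to COL6A1 was 0.942 ± 0.0680 in muscle and 1.03 ± 0.210 in liver (exact p = 0.223, adjusted p = 0.462). COL4A1 to COL4A2 was 1.82 ± 0.210 in muscle and 2.35 ± 0.978 in liver (exact p = 0.141, adjusted p = 0.380). COL1A1 to COL1A2 was 0.779 ± 0.122 in muscle and 0.675 ± 0.255 in liver (exact p = 0.207, adjusted p = 0.462). In liver it ran from 0.447 in treated sheep 48 to 0.951 in treated sheep 185, and from 0.391 in control sheep 179 to 1.03 in control sheep 201. For the type I pair the mean paired difference in log2, muscle minus liver, was 0.26 with an SD over pairs of 0.55. It was above 0 in 5 of these 9 sheep. Other partner ratios lay farther apart without passing. COL5A1 to COL5A2 was 1.31 ± 0.269 in muscle and 0.639 ± 0.483 in liver (exact p = 0.0117, adjusted p = 0.0633). Its log2 difference was above 0 in 8 of 9 sheep. COL4A5 to COL4A6 was 1.90 ± 0.621 and 3.57 ± 2.74 (exact p = 0.0547, adjusted p = 0.185). COL3A1 to COL1A2 was 2.51 ± 0.366 and 3.18 ± 0.689 (exact p = 0.0273, adjusted p = 0.122).

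Between treatment groups no ratio passed. The smallest exact p, 0.00794, which is the smallest that 5 against 5 animals can give, belonged to COL3A1 over COL1A2 in muscle. Its ratio was 3.0, 2.61, 2.67, 2.62 and 2.93 in treated muscles and 1.96, 1.85, 2.46, 2.46 and 2.54 in control muscles. Every treated muscle lay above every control muscle, and the adjusted p over the 27 tests was 0.0536. In liver the same ratio was 3.36 ± 0.850 in treated and 2.96 ± 0.427 in control sheep (exact p = 0.460).

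**Figure D5:**
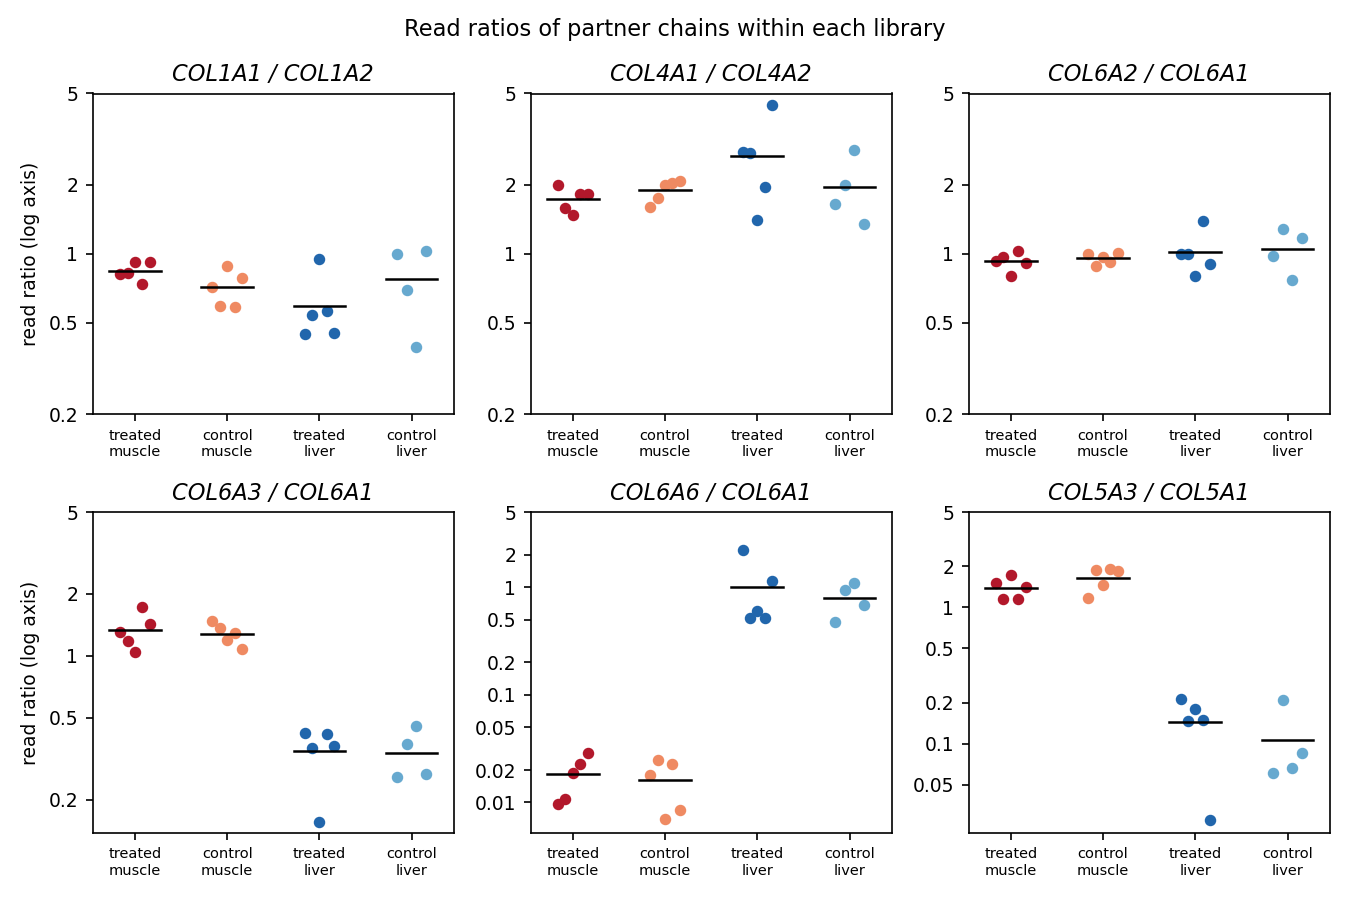
Ratio of reads (log axis) between partner chains within each library for 6 pairs, with treated muscle, control muscle, treated liver and control liver from left to right. Points are animals and bars group means. The upper 3 pairs, COL1A1 to COL1A2, COL4A1 to COL4A2 and COL6A2 to COL6A1, overlap between tissues, while COL6A3 to COL6A1 and COL5A3 to COL5A1 are higher and COL6A6 to COL6A1 lower in every muscle.

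The next question was whether partner chains varied together between animals. For 8 pairs in each tissue, 16 in all, deviations of log2(normalized count + 1) from the group mean were correlated over the animals, with exact permutation within groups and adjustment over the 16. In muscle (n = 10) 7 of 8 pairs passed an adjusted p of 0.05, and in liver (n = 9) 2 of 8 did. Pairs of other genes were not tested, so nothing particular to partner chains is read from these counts. By Spearman's rho, adjusted in the same way, 6 of 8 passed in muscle and 2 of 8 in liver, since the type IV pair COL4A1 and COL4A2 in muscle had r = 0.92 (exact p = 0.00674, adjusted p = 0.0154) and rho = 0.82 (exact p = 0.0387, adjusted p = 0.0688). For COL1A1 and COL1A2 in muscle Pearson's r was 0.96 (exact p = 0.000486, adjusted p = 0.00194) and Spearman's rho 0.90 (exact p = 0.00153, adjusted p = 0.00463). For COL6A1 and COL6A2 r was 0.96 (exact p = 0.000139, adjusted p = 0.00167) and rho 0.99 (exact p = 0.000417, adjusted p = 0.00370). SERPINH1, the chaperone that binds the folded procollagen helix, followed COL1A1 with r = 0.83 (exact p = 0.00896, adjusted p = 0.0179) and rho = 0.88 (exact p = 0.00354, adjusted p = 0.00810). COL1A1 and COL4A1, chains of different matrix types, did not pass (r = 0.62, exact p = 0.183, adjusted p = 0.210, and rho = 0.71, exact p = 0.0866, adjusted p = 0.0990).

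These relations could rest in part on the 2 animals farthest from the median of the first gene named in a pair. They were sheep 185 and 233 for 7 of the 8 muscle pairs and sheep 255 and 233 for the type IV pair. Without them r was 0.88 for COL1A1 and COL1A2 (exact p = 0.0417) and 0.95 for COL6A1 and COL6A2 (exact p = 0.00556), and no muscle pair passed the adjustment. It was 0.88 for COL1A1 and SERPINH1 (exact p = 0.0333) and 0.63 for COL5A1 and COL5A2 (exact p = 0.128). With fewer animals and 720 permutations left the test is weaker, so the lost calls alone do not show dependence on these animals. No liver pair passed without its own 2 farthest animals either. With only 144 permutations left a liver pair could hardly pass, so nothing is read from that. For COL1A1 and COL4A1 in muscle r was -0.29 without sheep 185 and 233 (exact p = 0.197).

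In liver COL6A1 and COL6A2 had r = 0.91 (exact p = 0.00243, adjusted p = 0.00778) and rho = 0.98 (exact p = 0.000694, adjusted p = 0.00370), and COL4A1 and COL4A2 r = 0.79 (exact p = 0.0184, adjusted p = 0.0327) and rho = 0.87 (exact p = 0.0125, adjusted p = 0.0250). COL1A1 and COL3A1, at r = 0.95 in muscle, had r = 0.20 in liver (exact p = 0.675, adjusted p = 0.675, rho = -0.02, exact p = 1.0). COL5A1 and COL5A2, at r = 0.91 in muscle, had r = -0.19 in liver (exact p = 0.656, adjusted p = 0.675, rho = -0.17, exact p = 0.693). Whether r differed between the tissues was not tested.

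Genes that make, process, bind and break down collagen did not pass the treatment test either. Of 22 genes for folding and modification, 19 were tested in muscle and 20 in liver, of 14 for processing and crosslinking 9 and 9, of 16 receptors and fibril-associated proteins 13 and 11, and of 13 degrading enzymes and inhibitors 9 and 8. In each list and tissue 0 genes were called with limma or edgeR. At an unadjusted p under 0.05 limma had 2 of 19 folding genes higher and 1 lower in muscle. In liver 1 of 20 folding genes was higher and 1 of 9 crosslinking genes lower. Of all genes, 7.37% were higher and 7.0% lower in muscle, and 1.82% higher and 2.17% lower in liver. Nothing particular to the lists is read from such small counts. List medians ran from -0.15 (degradation, muscle) to 0.11 (folding, muscle), against medians of all genes of -0.01 in muscle and 0.00 in liver.

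PLOD2, the lysyl hydroxylase of the crosslinking sites at the chain ends, averaged 224 ± 61.7 in treated and 135 ± 48.5 in control muscles (SD, n = 5 each), with overlapping ranges of 133 to 293 and 73.4 to 187, and a log2 difference of 0.76 ± 0.27 (unadjusted p = 0.0135, adjusted p = 0.242). SEC23A, a coat protein of the vesicles that carry procollagen out of the endoplasmic reticulum, averaged 313 ± 69.4 in treated and 474 ± 84.1 in control muscles, a difference of -0.60 ± 0.17 (adjusted p = 0.184). LOXL3 and BMP1, a crosslinking enzyme and the protease that trims the ends of fibrillar procollagens, differed by 0.46 ± 0.25 and 0.35 ± 0.22 in muscle. LUM and ITGA10, a fibril-binding proteoglycan and a collagen receptor subunit, differed by 0.54 ± 0.34 and 0.44 ± 0.29. TIMP4, an inhibitor of matrix metalloproteinases, and FAP, a protease of activated fibroblasts, differed by -0.52 ± 0.25 and 0.45 ± 0.22.

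In liver P4HA1, the catalytic chain of the prolyl hydroxylase that stabilises the triple helix, averaged 546 ± 321 in treated and 226 ± 111 in control sheep, a difference of 1.19 ± 0.43 (unadjusted p = 0.0160, adjusted p = 0.999), and PLOD2 differed by 0.62 ± 0.43. LOXL4, a lysyl oxidase of the crosslinking family, averaged 111 ± 52.6 in treated and 223 ± 126 in control livers, a difference of -1.02 ± 0.45 (unadjusted p = 0.0416, adjusted p = 0.999). The other named genes of the lists, TGM2, BGN, DCN, MMP2 and TIMP1, differed by -0.49 to 0.30 in liver, with SEs of 0.33 to 0.45. The liver medians of the folding and the degradation list were 0.00 and -0.02.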

How the data were processed

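The submitters' processing notes name Trimmomatic, STAR and featureCounts 1.6.1. Genome build, annotation, strand setting and the handling of multiply mapped reads are not given in the sources used here. What the authors deposited is a signal, the normalized read count of each gene in each library, for 28524 rows. Dividing by the worth of a single read gave whole reads for 100% of the values in every library (tolerance 0.01 read, with a worth close to 1 in the control muscle of sheep 98). Median-of-ratios size factors of those reads, computed per tissue, matched the deposited scaling to a relative 1.7e-10. Each replicate is a separate sheep. In 36 pairs of libraries of one group, a chi-square test of the reads gave at least 21.0 per degree of freedom, so none is a repeat of another.

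Treatment was tested in each tissue with limma 3.58.1 (R 4.3.3), with a trend in the prior variance, on log2(normalized count + 1) for genes with a mean of at least 10. The tissues were compared on log2(CPM + 1) of the recovered reads scaled by the trimmed mean of M-values. p-values were adjusted by Benjamini-Hochberg over all genes tested. edgeR 4.0.16 and DESeq2 1.42.0 on the recovered reads were alternatives, as were pseudocounts of 0.25 and 4, a minimum mean of 50 and none, other scalings, array weights, the sheep as a block, and leaving out each sheep in turn. The tests were checked on simulated counts. Same-sheep muscle and liver libraries had a median correlation of deviations of 0.177 over 9 pairs (lowest 0.103), against -0.0194 over 81 pairs of different sheep, so the sheep pairs the tissues.

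The chains, gene lists, pairs and markers were chosen with earlier results of these data known. Chains named with values are COL1A1, COL1A2, COL3A1, COL5A1, COL5A2, COL4A1, COL4A2, COL15A1, COL18A1, COL6A1, COL6A2, COL6A3, COL12A1, COL14A1 and COL22A1, the 3 with the smallest limma p per direction and tissue, the 4 with the largest difference per direction between control tissues, and 2 genes per handling list and tissue. The other 7 chains (COL4A3, COL4A4, COL4A5, COL4A6, COL8A1, COL13A1 and COL16A1) lie outside that rule and were named after their values were seen, to account for every chain. Neighbouring or overlapping genes (COL4A5 and COL4A6 overlap in the RefSeq gene table of another build) can share reads. No exon structure or sequence was used.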

Additional observations from a re-analysis of the deposited data

Results flagged for a closer look

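For each of the 29 chains, in each tissue where its mean reached the minimum, the highest and lowest library of each group of 4 or 5 was compared with its nearest neighbour by Dixon's criterion. Of 108 groups, 8 held a library that stood apart, and chance gives about 1 in 20 groups. In treated muscle 233, COL21A1 was 45.1, against 12.1 to 21.4 in the other 4 treated muscles, COL13A1 was 52.0, against 5.67 to 16.5, and COL4A5 was 69.0, against 42.7 to 49.7. COL6A5 was 50.5 in treated muscle 255, against 0.809 to 7.67 in the others. COL5A1 was 379 in treated liver 185, where the other 4 treated livers were 71.9 to 133, and COL5A3 was 68.0 in the same library, against 2.17 to 19.6. COL8A1 was 690.1 in treated liver 255, against 362 to 435 in the other treated livers. COL6A5 was 14.5 in control liver 201, the lowest there, against 21.3 to 22.6.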

How the results depend on the processing

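The counts of chains past the adjusted threshold kept their values within 1.5 times under the alternatives run, except that DESeq2 called 1 chain higher in muscle, 1 lower in liver and 1 more positive in muscle than in liver (COL18A1 each time), where limma called 0. With the sheep as a replicate block, 0 chains passed the test across tissues, 12 were higher and 11 lower in treated muscle than liver, and 7 higher and 12 lower in control muscle than liver, as without the pairing, and the block changed no other call. Leaving out treated sheep 185 and 233 together put the muscle median at -0.20 and turned 11 muscle differences, to -0.30 (COL1A1), -0.23 (COL3A1), -0.32 (COL4A2), -0.30 (COL5A2), -0.20 (COL5A3), -0.26 (COL6A1), -0.29 (COL6A2), -0.23 (COL6A3), -0.24 (COL6A6), -0.0493 (COL8A1) and -0.13 (COL16A1). Signs also turned for COL1A2 (0.0131 with TMM rescaling, 0.15 in edgeR, 0.15 in DESeq2) and COL6A5 (0.43 in edgeR, 0.45 in DESeq2) in muscle, COL5A3 (0.27 in edgeR, 0.29 in DESeq2), COL21A1 (-0.0097 with TMM rescaling), COL4A6 (0.0558 with array weights), COL6A5 (-0.16), COL11A2 (-0.30) and COL14A1 (-0.17, all with array weights) in liver, COL5A1 in control muscle against liver (-0.12 in edgeR) and COL15A1 in treated muscle against liver (-0.0072 with median-of-ratios scaling, -0.0061 in edgeR). The cause was not tested.

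Leaving out each library in turn, the differences that crossed 0 between treated and control muscle ran from -0.0387 to 0.42 (COL1A1), -0.34 to 0.16 (COL1A2), -0.0179 to 0.48 (COL3A1), -0.21 to 0.0785 (COL4A1), -0.13 to 0.22 (COL4A2), -0.12 to 0.31 (COL5A2), -0.0297 to 0.26 (COL6A1), -0.12 to 0.22 (COL6A2), -0.084 to 0.31 (COL6A3), -0.0514 to 0.28 (COL8A1) and -0.39 to 0.0377 (COL14A1). Between treated and control liver they ran from -0.23 to 0.0607 (COL1A2), -0.0672 to 0.22 (COL3A1), -0.26 to 0.0142 (COL4A3), -0.24 to 0.0789 (COL4A4), -0.78 to 0.25 (COL4A6), -0.68 to 0.43 (COL5A3), -0.29 to 0.20 (COL6A5), -0.55 to 0.28 (COL7A1), -0.66 to 0.12 (COL8A1), -0.45 to 0.65 (COL11A2), -0.24 to 0.0971 (COL12A1), -0.20 to 0.32 (COL14A1) and -0.15 to 0.14 (COL21A1). Between treated tissues -0.0894 to 0.17 (COL15A1) crossed 0, and between control tissues -0.0129 to 0.28 (COL3A1), -0.19 to 0.34 (COL5A1), -0.36 to 0.17 (COL7A1), -0.0104 to 0.43 (COL11A2) and -0.17 to 0.24 (COL16A1). Without the 2 farthest animals, 0 pairs of chains passed in muscle and 0 in liver, with 8 and 7 animals left. In liver the 144 permutations left could hardly let a pair pass. In this setting r was -0.29 for COL1A1 and COL4A1 in muscle and -0.57 for COL1A1 and COL3A1 in liver. With raw log2 values in place of deviations from group means, 6 liver pairs passed. Depth limits COL23A1 (13 reads), COL13A1 (85) and COL11A2 (124) in liver, COL4A4 (52), COL4A3 (80) and COL6A5 (109) in muscle, and COL22A1, with 18 reads in muscle and 10 in liver.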
